A study of Mus musculus with 24 samples.

Results

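The data described here cover the step from day 1 to day 3 of adipogenic differentiation in 3T3-L1 cells kept under ML-792, a small molecule that blocks the SUMO activating enzyme SAE1/UBA2. The members were chosen by their labels alone and are the 3 libraries of ML-792 day 3 and the 3 libraries of ML-792 day 1, which make up 6 of the 24 samples of the series. The study followed 3T3-L1, a clonal mouse fibroblast line that becomes fat cells under hormonal stimulation, with and without inhibition of SUMO conjugation. It used SLAMseq, in which new RNA takes up 4-thiouridine and is recognised in 3′ end sequencing by its T-to-C conversions, so that each library gave a total and a labelled read count per gene. Libraries were made on days -2, 1, 3 and 7 in ML-792 or in its solvent DMSO, with 3 biological replicates lettered A, B and C in each condition.

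Both groups received 0.5 µM ML-792 and were induced in the same differentiation medium, a mixture of dexamethasone, IBMX, insulin and fetal bovine serum that was replaced on day 3 by a medium with insulin. Cells were given 100 µM 4-thiouridine for 45 min before harvest. The labels do not say on which day the inhibitor was first added, or whether the day 3 harvest came before the change of medium. The 3 DMSO libraries of day 1 and the 3 of day 3, grown and labelled in the same way, serve as the reference for the same interval. All values therefore come from 1 cell line, and replicates are separate cultures of it.

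SUMO is a small protein that is joined to lysines of other proteins, mostly in the nucleus, by an enzyme cascade that begins with SAE1/UBA2, passes to the conjugating enzyme UBC9 and is reversed by SENP proteases. In 3T3-L1 cells the hormone cocktail first switches on C/EBPβ and C/EBPδ and restarts the cell cycle for a few divisions. These factors then induce PPARγ and C/EBPα, which switch on genes of lipid storage, insulin response and adipokine secretion while genes of the fibroblast-like precursor are shut down.

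The total counts of the 6 libraries ranged from 9118951 to 13004417 reads and their labelled counts from 87500 to 141205 reads. Library B stood apart from A and C on both days in total reads, with a chi-square per degree of freedom of 43.9 to 66.9 for pairs that include B and of 12.9 and 16.6 for A against C, and the result of leaving out each letter is given where it matters. The sum of 7 adipocyte markers was 2907 to 3825 CPM (reads scaled to a common total per library) on day 1 and 31620 to 38088 on day 3, and that of 7 fibroblast markers was 24300 to 29569 on day 1 and 7640 to 8327 on day 3, so the cells carried the markers of the labelled line on both days. Endothelial markers summed to at most 1.69 CPM over the 12 libraries of both treatments and days. Macrophage markers reached 36.8 CPM and bone and cartilage markers 37.6, both on ML-792 day 1. Under ML-792 epithelial markers went from 0.538 to 0.638 CPM on day 1 to 11.4 to 12.6 on day 3. Muscle markers went from 1.82 to 2.46 CPM to 8.72 to 15.6, and both sets were also higher on day 3 in DMSO.

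Labelled reads made up 1.071%, 0.985% and 1.086% of the reads of the day 1 libraries A, B and C, and 0.943%, 0.897% and 0.968% of the day 3 libraries. All 3 day 3 values lay below all 3 day 1 values. The means were 1.05% ± 0.0546 and 0.936% ± 0.0361 (SD, n = 3), a difference of -0.111 percentage points (exact permutation test, two-sided, p = 0.1, the smallest p that 3 against 3 allows). In DMSO the share went from 1.28% ± 0.0744 to 1.02% ± 0.112 (SD, n = 3), a difference of -0.253 points with the same p of 0.1. Every library received thiouridine, so the part of these shares that arises without it was not measured.

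**Figure D1:**
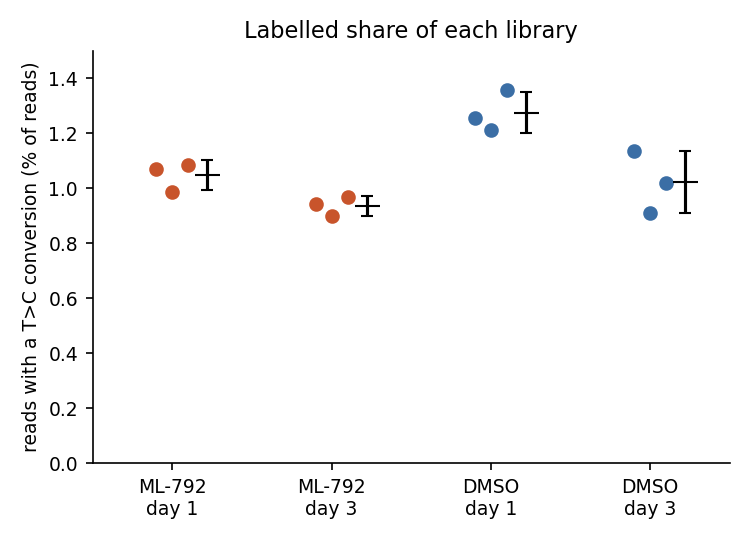
Labelled reads as a percent of all reads (vertical axis, from 0) in the 3 libraries of ML-792 and DMSO on days 1 and 3; points are libraries and bars are mean ± SD. In ML-792 the day 3 libraries lie at 0.897% to 0.968%, below the day 1 libraries at 0.985% to 1.086%.

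Between day 1 and day 3 under ML-792, most tested genes of triglyceride synthesis, lipid droplets and mitochondria rose in total RNA and most tested genes of mitosis, DNA replication, matrix and chemokines fell. Of 12763 genes tested with edgeR at an adjusted p under 0.01, 1809 rose (14.2%) and 1831 fell (14.3%), of which 1186 and 1358 changed by over 2-fold. The median log2 change of all tested genes was -0.015. Leaving out replicate A of all ML-792 libraries left 1601 calls of 3640 and leaving out replicate C left 1738. The fit with the replicate letter as a block made 5618, though pairing by letter was clear for B only. In bulk RNA, fewer cells of a type and less RNA per cell cannot be told apart, and this holds for every value below.

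**Figure D2:**
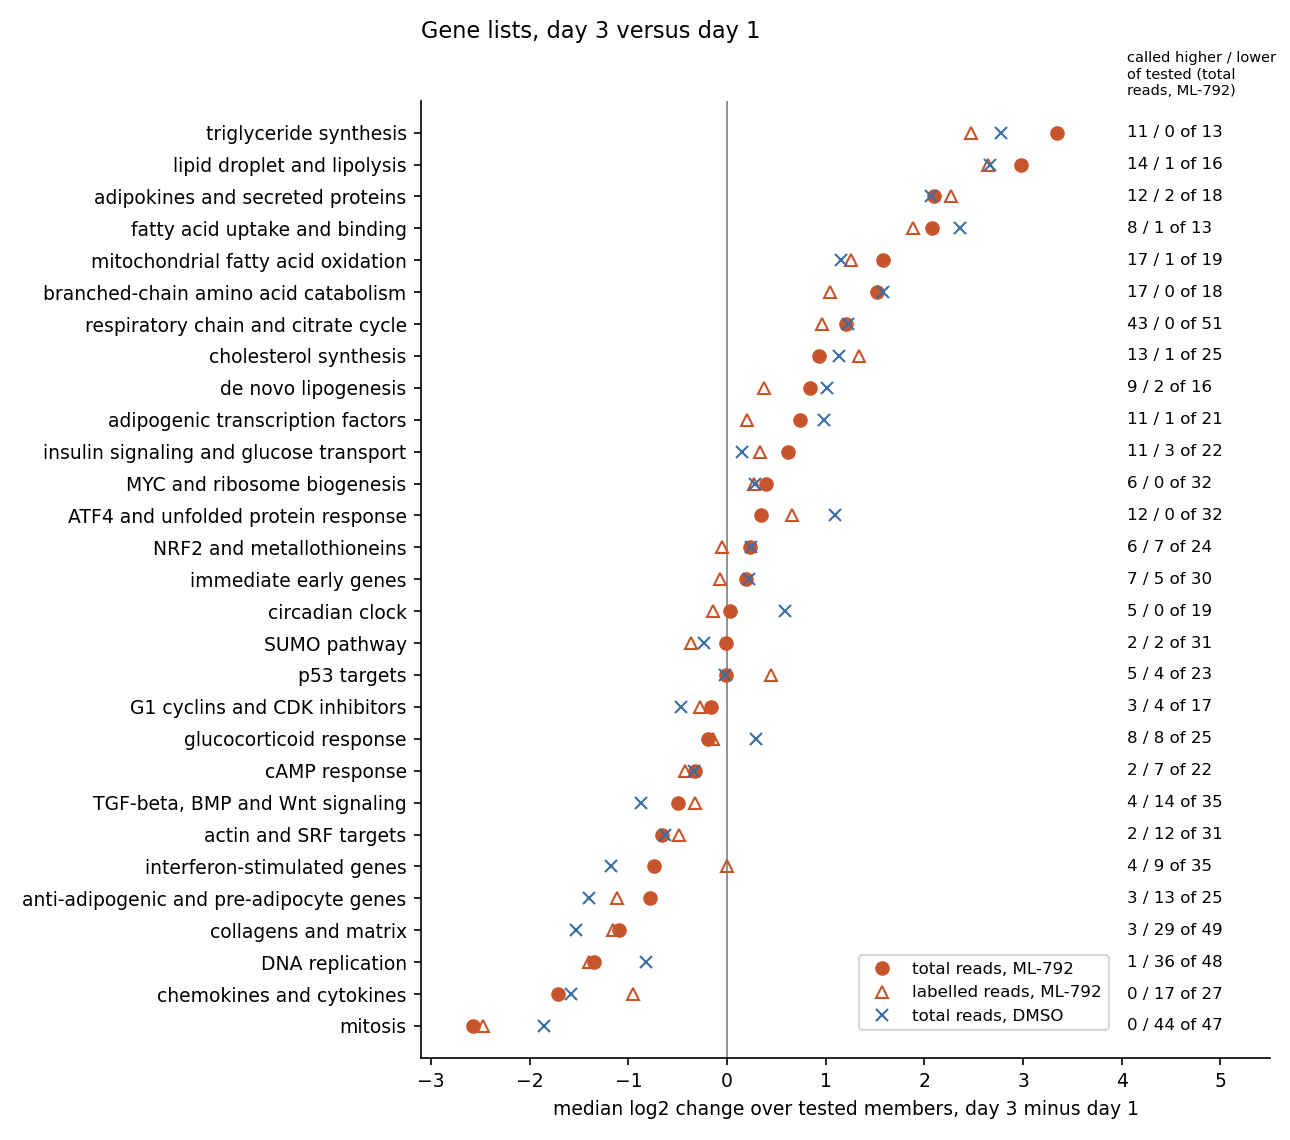
Median log2 change of day 3 against day 1 (horizontal axis) for 29 gene lists in total reads under ML-792, labelled reads under ML-792 and total reads under DMSO; the right margin gives the number of genes called higher and lower of those tested under ML-792. Triglyceride synthesis (median 3.35) and lipid droplet genes (2.97) lie at the top and mitosis genes (-2.57) at the bottom. With library sizes of the labelled counts themselves, the labelled medians of interferon-stimulated genes (0 to -0.41) and of the circadian clock (-0.15 to 0.38) change sign.

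Adipogenic transcription factors rose in 11 of 21 tested members and fell in 1, with a median log2 change of 0.73. Pparg, the nuclear receptor that drives fat cell identity, had normalised total counts (reads scaled to a common library size) of 1297, 842 and 1196 in day 1 libraries A, B and C and 2962, 2861 and 6022 on day 3. The day 3 counts were all above the day 1 counts, a log2 change of 1.83 ± 0.35 (SE, adjusted p = 0.000983). Cebpa, its partner factor, went from 2024, 1056 and 2033 to 10261, 5902 and 7274 (2.20 ± 0.32, adjusted p = 0.000103). The lipogenic factor Nr1h3 (2.94), the insulin-responsive Klf15 (3.27) and the mitochondrial coactivator Ppargc1b (3.47) also rose on the log2 scale. The early factor Cebpd fell by 0.65, whereas Cebpb, its early partner, had a log2 value of 0.19 ± 0.23 that did not pass the test (adjusted p = 0.554). The calls of Pparg and Cebpd were lost without replicate A and without replicate C, that of Pparg also with no filter on low counts, and the count of members that rose was 7 without A and 6 without C.

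Triglyceride synthesis and lipid droplet genes had the highest medians of the 29 lists. Of 13 tested genes of triglyceride synthesis 11 rose and none fell, with a median log2 change of 3.35, and 14 of 16 lipid droplet and lipolysis genes and 8 of 13 genes of fatty acid uptake and binding rose while 1 fell in each. Fabp4, the fatty acid carrier of adipocytes (mm10 3′UTR entry chr3:10204342-10204519, minus strand), had normalised counts of 3355, 5073 and 2797 on day 1 and 184830, 240906 and 212219 on day 3. The groups were far apart (5.83 ± 0.25 on the log2 scale, adjusted p = 3.18e-09). Gpd1, which makes the glycerol backbone of triglycerides (chr15:99723288-99725008, plus strand, 3′UTR), went from 138, 177 and 203 to 26734, 25644 and 26812 normalised counts. This was a log2 change of 7.25 ± 0.21 (adjusted p = 2.37e-10), with no overlap between the days.

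Further members that rose were the acyltransferases Dgat1 (3.25) and Dgat2 (4.25), the droplet coats Plin1 (5.60) and Cidec (4.86), the lipases Pnpla2 (3.52) and Lipe (2.92) and the fatty acid transporter Cd36 (5.51), all as log2 changes. Aqp7, the glycerol channel of fat cells, had 2 reads summed over the day 1 libraries and 319 over the day 3 libraries, a ratio of 176 (95% counting interval 48.3 to 1457), counting error only. Plin3, a droplet coat found in many cell types, and Acsl4, an acyl-CoA synthetase for polyunsaturated fatty acids, fell by 0.80 and 1.07 on the log2 scale. The calls of Plin3 and Acsl4 were lost without replicate A, while the counts of the triglyceride list were 11 without each of replicates A, B and C.

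De novo lipogenesis was more mixed, with 9 of 16 genes higher and 2 lower and a median log2 change of 0.84. Fasn, the fatty acid synthase, rose by 2.21 ± 0.26 (adjusted p = 1.3e-05) and the malic enzyme Me1 by 2.47 ± 0.21 (adjusted p = 7.16e-07). Scd1, the stearoyl-CoA desaturase, had normalised counts of 7287, 10592 and 6784 on day 1 and 13967, 18785 and 13308 on day 3. Its days did not overlap, yet the log2 change was only 0.90 ± 0.22 (adjusted p = 0.00516), and this call was lost without replicate A and without replicate C. Acly, which supplies cytosolic acetyl-CoA, had a value of 0.47 ± 0.17 that did not pass the test (adjusted p = 0.0388). The desaturase Fads1 and the elongase Elovl5, both of polyunsaturated fatty acid synthesis, fell by 1.36 and 0.81. The calls of Fads1 and Elovl5 were lost without A, and that of Elovl5 also without C. Of the list, 4 genes rose without A and 5 without C.

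Adipokines and other secreted proteins rose in 12 of 18 genes and fell in 2. Adipoq, the adiponectin gene, went from 395, 597 and 353 to 18385, 16049 and 15235 normalised counts (5.21 ± 0.25, adjusted p = 7.31e-09). Lep, the leptin gene, was close to absent on day 1, with 4 reads over the 3 libraries, and had 858 reads on day 3, a ratio of 236 (95% counting interval 92.0 to 869). Retn, which encodes resistin, had 114, 163 and 73.4 on day 1 and 1129.5, 963 and 827 on day 3 (3.07 ± 0.31, adjusted p = 3.92e-06). The complement factor Cfd (4.28), haptoglobin Hp (3.25) and angiotensinogen Agt (2.11) also rose, while Serping1, an inhibitor of complement C1, and Angptl4, an inhibitor of lipoprotein lipase, fell by 2.41 and 0.65, calls lost without replicate A and without replicate C.

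**Figure D3:**
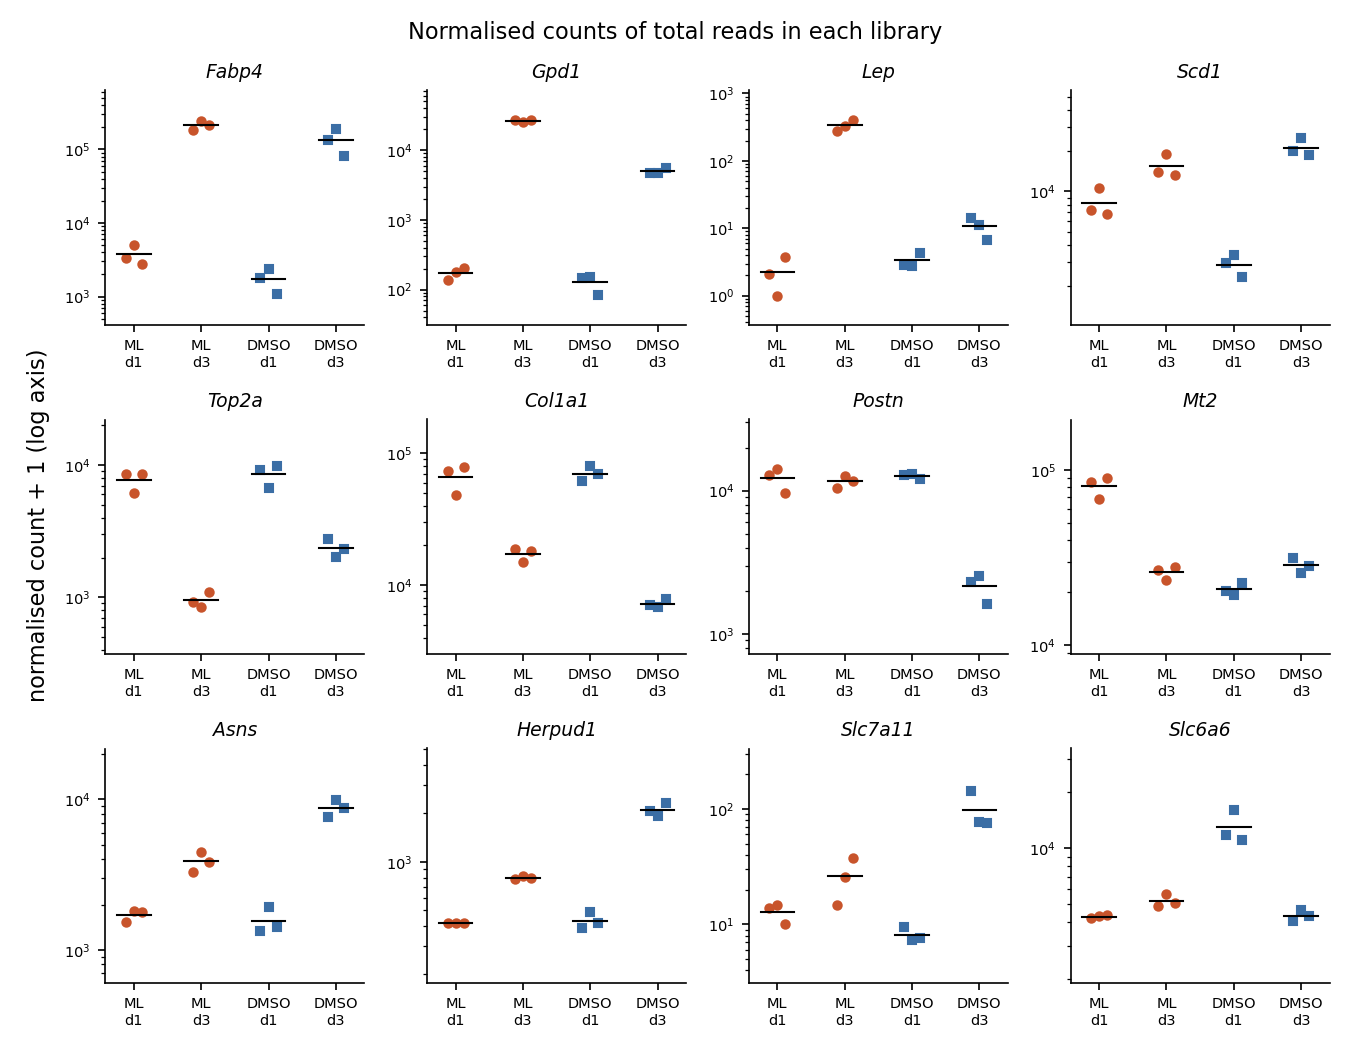
Normalised total counts plus 1 on a logarithmic axis for 12 genes in each library of ML-792 and DMSO on days 1 and 3; points are libraries and black lines are group means. Fabp4, Gpd1 and Lep are higher and Top2a is lower in all day 3 libraries of both treatments, whereas Postn, Mt2 and Slc6a6 part between the treatments.

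Most mitochondrial genes rose. Of the respiratory chain and citrate cycle 43 of 51 tested genes rose and none fell (median log2 change 1.20), of mitochondrial fatty acid oxidation 17 of 19 rose and 1 fell (1.58), and of branched-chain amino acid catabolism 17 of 18 rose (1.52). Acaa2, the last thiolase of mitochondrial beta-oxidation, had 2332, 1975 and 2754 normalised counts on day 1 and 9588, 8195 and 9868 on day 3 (1.97 ± 0.19, adjusted p = 2.14e-06). Bcat2, which starts the breakdown of branched-chain amino acids, rose by 3.39 and the dehydrogenase subunit Bckdhb by 3.23 on the log2 scale. Cpt1b, the muscle-type carnitine transferase, rose by 1.93, a call lost without A and without C, and its liver-type counterpart Cpt1a fell by 1.30. The respiratory count was 23 without replicate A and 18 without replicate C. In insulin signalling, 11 of 22 genes rose and 3 fell (6 rose without A and 7 without C), among them the insulin-responsive glucose transporter Slc2a4 with a rise of 4.93 and the adaptor Grb14, which binds the insulin receptor and fell by 2.01, a call lost without C. The growth factor gene Igf1 and its binding protein gene Igfbp4 were the other two that fell.

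Markers of brown fat were low, and some of them moved. Of 7 markers 5 were tested, Ucp1 and Prdm16 not among them. Of the 5 tested, 3 rose and none fell (1 rose without A and 2 without C). The sum of all 7 was 26.5 to 45.0 CPM on day 1 and 213 to 262 on day 3, and in DMSO 10.1 to 14.4 and 38.8 to 55.7. Elovl3, an elongase of very long fatty acids and one of these markers, had a mean normalised count of 14.6 on day 1 and 2075 on day 3 (7.10 ± 0.36, adjusted p = 1.02e-08). Elovl3 alone made up most of the day 3 sum in ML-792.

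Cholesterol synthesis genes rose in 13 of 25 members and fell in 1, with a median of 0.93. Hmgcs1, which makes the HMG-CoA that enters the pathway, had 1972, 2778 and 1870.1 normalised counts on day 1 and 5757, 8238 and 5457 on day 3 (1.56 ± 0.23, adjusted p = 9.68e-05), a call lost without replicate A. The lanosterol demethylase Cyp51 (2.58) and the synthase Lss (2.82) rose as well. Stard4, a sterol carrier, fell by 0.65, a call lost without each of the replicates in turn.

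Genes of cell division showed the opposite course. Of 47 tested mitosis genes 44 fell and none rose, with a median log2 change of -2.57, and of 48 DNA replication genes 36 fell and 1 rose (-1.34). Leaving out A, B or C gave 34, 42 and 39 mitosis genes lower, but only 20 and 19 replication genes without A and without C. Top2a, the topoisomerase that untangles sister chromatids (chr11:98992947-98993413, minus strand, 3′UTR), had 8528, 6189 and 8505 normalised counts on day 1 and 926, 847 and 1097 on day 3. Every day 3 library was below every day 1 library (-3.02 ± 0.23, adjusted p = 2.99e-07). Pttg1, the securin that holds back separase, went from 2124, 1712 and 2242 to 183, 164 and 209 (-3.45 ± 0.23, adjusted p = 1.37e-07). Of the replication genes, the helicase subunit Mcm5 fell by 2.05 and the thymidylate synthase Tyms by 1.56, while the sliding clamp Pcna had a value of -0.76 ± 0.32 (adjusted p = 0.076). E2f2, a factor of the S phase programme, was the member that rose (1.38), a call lost without B and without C. Of 17 G1 cyclins and CDK inhibitors 3 rose and 4 fell (1 each without A and without C, and 4 and 7 with the replicate block). The cyclins Ccnd1 and Ccnd3 fell by 1.33 and 0.49 on the log2 scale and Ccnd2 rose by 0.72, while the inhibitor Cdkn2c rose by 1.69, Cdkn1b and Cdkn2b fell by 0.99 and 1.07, and Rb1, the retinoblastoma gene, rose by 0.76.

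Because these genes moved together, their promoters are shown. The windows, 250 bases before to 50 bases after each annotated start, are RefSeq sequences of build GRCm38.p6, and capitals mark matches on either strand to the CCAAT box (CCAAT, reverse ATTGG) or to the core TTTGAA or TTCGAA of the cell cycle genes homology region (reverse TTCAAA for the first, while the second reads the same on both strands). The stretches of Top2a (chr11:99024197-99024426, minus), Mki67 (chr7:135716462-135716577, minus), the separase gene Espl1 (chr15:102296239-102296281, plus) and the spindle motor gene Kif11 (chr19:37376327-37376378, plus) lie wholly before their starts and run 5′ to 3′ on the gene's strand.
Top2a: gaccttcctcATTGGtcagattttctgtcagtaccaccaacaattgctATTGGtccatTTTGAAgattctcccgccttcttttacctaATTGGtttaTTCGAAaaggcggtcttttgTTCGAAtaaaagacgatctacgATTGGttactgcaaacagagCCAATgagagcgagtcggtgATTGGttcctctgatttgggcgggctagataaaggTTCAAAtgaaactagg
Mki67: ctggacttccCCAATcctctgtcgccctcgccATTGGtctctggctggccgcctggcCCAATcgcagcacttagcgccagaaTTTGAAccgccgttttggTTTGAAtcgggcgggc
Espl1: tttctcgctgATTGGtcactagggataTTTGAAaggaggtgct
Kif11: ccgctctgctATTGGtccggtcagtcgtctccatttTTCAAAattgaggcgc

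All 4 of these genes fell, as did 44 of the 47 tested mitosis genes. Their log2 changes were -3.02 for Top2a, -2.70 for the proliferation antigen Mki67, -2.80 for Espl1 and -2.78 for Kif11. Of the same list, Cks1b (6 matches) and Cks2 (4 matches) were not called. The calls of Mki67 and Espl1 were lost without replicate A. CCAAT stood in 35 of the 45 windows of the mitosis list (77.8%) and in 37.4% of all 32851 windows. It also stood in 29 of 47 windows of the DNA replication list (61.7%), in 23 of 33 of the ATF4 list (69.7%) and in 17 of 23 of cholesterol synthesis (73.9%). TTTGAA stood in 30 of 45 (66.7%) against 17.9% of all, and TTCGAA in 5 of 45 (11.1%) against 1.56%. In the windows of the DNA replication list, the E2F letters TTTCCCGC stood in 6 of 47 (12.8%, all windows 1.07%) and TTTGGCGC in 7 of 47 (14.9%, all windows 0.514%). Both strands were searched, TTTGAA and TTCGAA cannot match the same letters in the same orientation, and a match is a description of the letters, not of a bound site.

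Genes of the precursor state fell in most groups. Of 25 tested anti-adipogenic and pre-adipocyte genes 13 fell and 3 rose (median -0.78), of 49 collagens and matrix genes 29 fell and 3 rose (-1.09), of 27 chemokines and cytokines 17 fell and none rose (-1.71), of 35 genes of TGF-beta, BMP and Wnt signalling 14 fell and 4 rose (-0.50), and of 31 actin and SRF targets 12 fell and 2 rose (-0.66). The matrix count was 20 without replicate A, 36 without B and 22 without C, the chemokine count 10 without A and 11 without C, the TGF-beta count 9 without A and the actin count 6 without A. The actin targets that rose were the adhesion protein Vcl and Amotl2. With the replicate letter as a block, 20 actin and SRF targets fell.

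Col1a1, the main chain of fibrillar collagen I, had 73401, 48267 and 78728 normalised counts on day 1 and 18907, 15027 and 18016 on day 3 (-1.95 ± 0.21, adjusted p = 5.47e-06). Fibronectin Fn1 fell by 2.26, Col3a1 by 1.40 and the collagen cross-linker Lox by 2.22. Eln, the elastin gene, had 384, 272 and 428 on day 1 and 11.7, 6.45 and 22.5 on day 3 (-4.72 ± 0.37, adjusted p = 4.07e-07). In contrast, Postn, the matricellular protein periostin, had 12799.8, 14080 and 9683 and 10364, 12675 and 11714, overlapping values with a log2 change of -0.07 ± 0.17 (adjusted p = 0.766). The metalloproteinase inhibitor Timp4 rose by 2.47, a call lost without A and without C, and the other two members that rose were Col6a3 and Col15a1.

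Dlk1, a surface protein that keeps precursors undifferentiated, went from 35631, 22780.1 and 35165 to 3193, 1929.9 and 2345 (-3.65 ± 0.27, adjusted p = 2.57e-07). The mesenchymal surface proteins Thy1 and Ly6a fell by 2.01 and 1.94, and the PDGF receptor Pdgfra by 0.91. Members that rose were the repressors Klf2 (1.83) and Gata3 (mean normalised count 87.0 on day 1 and 390.0 on day 3) and the ligand Wnt5b (2.31), the last lost without A and without C. Among chemokines Cxcl5, which attracts neutrophils, fell by 3.67. Il33, an alarmin cytokine, was not detected on day 3 after 47.5, 39.7 and 43.1 normalised counts on day 1, at least 12.3-fold lower against a floor of 3 reads per library. The BMP antagonist Grem1 fell by 3.46, and Sfrp5, a secreted Wnt inhibitor of fat cells, rose by 4.00, as did Tgfb2, Tgif1 and Lef1 of the same list.

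Targets of the hormone cocktail did not move as one. Of 25 glucocorticoid response genes 8 rose and 8 fell, of 22 cAMP response genes 2 rose (Ppargc1a and Hspb8) and 7 fell, and of 30 immediate early genes 7 rose and 5 fell (Fosl1, Jund, Ier5, Zfp36l1 and Dusp1). Mt2, a metal-binding metallothionein, had 85382, 68405 and 90178 normalised counts on day 1 and 27003, 23543 and 28044 on day 3 (-1.63 ± 0.15, adjusted p = 2.08e-06), and its neighbour Mt1 fell by 1.41. The days did not overlap for Mt2. The transglutaminase Tgm2 (4.31) and Hsd11b1 (3.04), which activates glucocorticoids, rose, while Dusp1, a phosphatase of MAP kinases, fell by 0.95. The early growth response factor Egr3 rose by 1.96, and Fos, a part of the AP-1 factor, had 434, 637 and 359 on day 1 and 637, 971 and 565 on day 3 (0.61 ± 0.31, adjusted p = 0.137).

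The ATF4 and unfolded protein response list rose in 12 of 32 tested genes and fell in none, with a median of 0.35. Asns, the asparagine synthetase, had 1521, 1823 and 1787 normalised counts on day 1 and 3311, 4494 and 3839 on day 3 (1.18 ± 0.14, adjusted p = 1.6e-05). Herpud1, which serves the disposal of misfolded proteins from the endoplasmic reticulum, went from 419, 417 and 416 to 785, 811 and 796 (0.93 ± 0.13, adjusted p = 6.34e-05), again without overlap. Slc7a11, the cystine importer, had 13.0, 13.6 and 9.18 on day 1 and 13.8, 24.5 and 36.7 on day 3, a value of 1.07 ± 0.42 that did not pass the test (adjusted p = 0.0572). Trib3 (1.91), a pseudokinase induced by stress, the serine synthesis enzyme Psat1 (1.66) and the glutathione-degrading Chac1 (2.28) rose.

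Promoter stretches of 4 members carry the letters of the C/EBP-ATF response element (TGATGNAAN, or its reverse complement), which is where ATF4 dimers are known to bind, and are shown because 11 genes of this list, Asns, Slc7a11 and Herpud1 among them but not Chac1, also had a called lower change than in DMSO. They are Asns (chr6:7693214-7693242, minus), Slc7a11 (chr3:50443643-50443689, minus), Herpud1 (chr8:94386306-94386334, plus) and Chac1 (chr2:119351038-119351066, plus) of GRCm38.p6, all wholly before the start, with the matches in capitals.
Asns: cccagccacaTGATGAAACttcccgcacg
Slc7a11: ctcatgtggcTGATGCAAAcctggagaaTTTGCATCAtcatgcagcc
Herpud1: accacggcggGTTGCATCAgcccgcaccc
Chac1: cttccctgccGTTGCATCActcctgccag

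Slc7a11 holds the element in both orientations, and the other stretches hold it once. Over the list 7 of 33 windows (21.2%) held a match, against 3.95% of all windows. Chac1, Nupr1 and Vldlr hold a match and had no called difference from DMSO. The letters were not tested against the counts.

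Other stress and signalling lists moved in both directions or in few members. Of 24 NRF2 and metallothionein genes 6 rose and 7 fell, with the pentose phosphate enzymes Taldo1 (2.11) and Tkt (1.93) and catalase Cat (2.40) higher and the quinone reductase Nqo1 lower (log2 change -1.09), and the calls of Tkt and Nqo1 were lost without A and without C respectively. Of 35 interferon-stimulated genes 4 rose (among them Ifi27, Usp18 and Gbp2) and 9 fell, with a median log2 change of -0.74. Of 23 p53 targets 5 rose (Trp53inp1, Bbc3, Plk3, Btg2 and Dcxr) and 4 fell (Phlda3, Gdf15, Eda2r and Fas), of 32 MYC and ribosome biogenesis genes 6 rose and none fell (1 without replicate A, 2 without C, and 16 with the replicate block), and of 19 circadian genes 5 rose and none fell (8 rose and 3 fell with the replicate block). Among the circadian genes that rose were Per3, Dbp and Tef. The clock factor Npas2 had 6 reads summed over the day 1 libraries, a ratio of 16.9 (95% counting interval 7.47 to 47.2), counting error only.

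The SUMO pathway itself changed little in RNA. Of 31 tested genes 2 rose and 2 fell, with a median of -0.01, and with the replicate block 6 rose and 9 fell. Sae1, a subunit of the enzyme that ML-792 blocks, fell by 0.92 on the log2 scale (adjusted p = 0.0017), a call lost without replicate B and without replicate C. Uba2, the other subunit, had -0.21 ± 0.18 (adjusted p = 0.374). The protease gene Desi2 rose by 0.52 (lost without A and without C), and Zmiz1, of the PIAS-like ligases, fell by 0.92.

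By the fixed rule of the largest changes, genes outside the lists were named too. Far2, a reductase that makes fatty alcohols, had 6 reads over the 3 day 1 libraries and 5487 over the day 3 libraries, a ratio of 1008 (95% counting interval 463 to 2747). The fatty acid receptor Ffar4, the thyrotropin receptor Tshr and the lysolipid transporter Mfsd2a had no read on day 1 and were at least 8.02-fold, 6.57-fold and 6.34-fold higher on day 3. Arhgef37, an exchange factor of small GTPases, was likewise at least 12.03-fold higher, a call lost without replicate A, and the surface protein Ly6h at least 6.57-fold higher. The phosphodiesterase Pde11a had 2 reads on day 1 and 357 on day 3, a ratio of 197 (95% counting interval 54.0 to 1630.3). On the side of lower genes, the IL-33 receptor Il1rl1 had a ratio of day 1 over day 3 of 98.5 (95% counting interval 45.0 to 269), the proteoglycan Fmod one of 129.8 (95% counting interval 22.9 to 5162) and the kisspeptin gene Kiss1 one of 90.8 (95% counting interval 15.9 to 3620.2), the last lost without A and without C. The keratin Krt80, Aipl1, Duoxa1, the platelet chemokine Ppbp, Gatsl3 and the vesicle GTPase Rab27a had no read on day 3 and were at least 5.98-fold, 5.39-fold, 5.25-fold, 4.62-fold, 3.35-fold and 2.89-fold lower. Their calls were lost without A, and those of Krt80, Duoxa1, Ppbp and Rab27a also without C. All these intervals cover counting error only, and a few reads on the low side set them.

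Labelled reads, those with any T-to-C conversion, gave fewer calls. They are taken as reads from RNA made during the pulse. Every library received thiouridine, so conversions that arise without it were not measured. Of 4730 genes tested 108 rose (2.28%) and 115 fell (2.43%), with a median log2 change of -0.119 (-0.024 when labelled counts were scaled by their own library sizes). Without replicate A 65 were called and without replicate C 76. In both readouts 105 genes rose and 108 fell, none was called in opposite directions, and 697 genes that rose and 725 that fell in total reads did not pass the test in labelled reads. Labelled reads are part of the total reads of the same libraries, so the readouts are not independent and their shared direction is no separate evidence. Called in labelled reads alone were 3 higher genes, the acute phase gene Orm3, the haem oxygenase Hmox1 and the nuclear lamina protease Zmpste24, and 7 lower genes, Galk2, Klhdc2, Pdcl, Traf7, Aak1, Gm38485 and Gm38495, of which the last 3 overlap each other in the genome and may share reads. The call of Hmox1 was lost without each of the replicates.

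Fabp4 had normalised labelled counts of 31.3, 53.4 and 31.2 on day 1 and 860.4, 1171 and 1101 on day 3 (4.76 ± 0.30, adjusted p = 1.06e-16). For the droplet protein Cidec 5 labelled reads over day 1 stood against 334 over day 3, a ratio of 73.6 (95% counting interval 31.2 to 228), and for Adipoq 6 stood against 217, a ratio of 39.8 (95% counting interval 18.0 to 109.8). Dgat2 rose by 3.06 ± 0.57 (adjusted p = 0.000213), a call lost without A. Triglyceride synthesis had 5 of 7 tested genes higher, lipid droplet genes 7 of 10 and fatty acid uptake 5 of 9, and no member of these was lower. Without A the triglyceride count was 2.

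On the lower side, 11 of 21 mitosis genes and 13 of 35 collagens and matrix genes fell in labelled reads and none rose. Without replicate A and without replicate C the mitosis count was 2 each time, and the matrix count was 4 and 3. Top2a had labelled counts of 84.2, 68.2 and 56.9 on day 1 and 12.8, 12.9 and 11.8 on day 3 (-2.47 ± 0.46, adjusted p = 0.000202), a call lost without A and without C. Col1a1 had 317, 202 and 399 and 103, 70.9 and 98.2 (-1.75 ± 0.28, adjusted p = 1.3e-05). Klf2, a repressor of fat cell formation, was higher, with 6 labelled reads on day 1 and 95 on day 3, a ratio of 17.4 (95% counting interval 7.73 to 48.7). None of the 24 tested genes of the ATF4 list was called in labelled reads, where 2.28% of all genes were called higher and 2.43% lower. A list of this size can have no call at such shares. Of its genes 18 had a positive and 6 a negative log2 change, with a median of 0.66 against -0.119 for all tested genes.

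Genes with the largest labelled changes had few or no labelled reads on 1 of the days. The glycolytic regulator Pfkfb3 was not detected in labelled reads on day 1 and was at least 18.3-fold higher on day 3. In the same way the phospholipase Pla2g16 was at least 7.22-fold, Far2 at least 6.86-fold, the receptor Ffar2 at least 5.47-fold, the mitochondrial peptidase subunit Immp2l at least 3.43-fold, the melanocortin receptor partner Mrap at least 3.19-fold and Hp at least 2.29-fold higher. Plin1 had 1 labelled read on day 1 and 113 on day 3, a ratio of 125 (95% counting interval 21.9 to 4961), and Gpd1 had 1 and 199, a ratio of 219 (95% counting interval 38.9 to 8703). Among lower genes, with no labelled read on day 3, the precursor factor Zfp521 was at least 3.29-fold, the Notch coactivator Maml2 at least 3.23-fold, Crim1 at least 2.62-fold, Col16a1 at least 2.46-fold, the flap nuclease Fen1 at least 2.39-fold, Timp1, an inhibitor of metalloproteinases, at least 2.30-fold, Medag at least 2.20-fold, Fbln5, of elastic fibres, at least 1.86-fold and Gpsm2 at least 1.74-fold lower. The spindle protein Tpx2 went from 50 to 1 labelled read, a day 1 over day 3 ratio of 45.4 (95% counting interval 7.78 to 1828). The calls of Far2, Hp, Immp2l, Timp1, Fbln5, Crim1, Col16a1, Medag and Gpsm2 were lost without each of the replicates, those of Mrap and Tpx2 without A and without C, that of Fen1 without B and without C, and those of Zfp521, Ffar2 and Maml2 without C.

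The labelled share of single genes was tested as labelled counts against total counts. None of 4730 genes was called higher (0 genes, 0%) and 2 were called lower (0.0423%), with 472 at an unadjusted p under 0.05. Labelled reads were 1.03% ± 0.0926 of the Fabp4 reads on day 1 and 0.490% ± 0.0270 on day 3 (SD, n = 3), a log2 change of -1.08 ± 0.17 (SE, adjusted p = 0.000339). Of the Hmgcs1 reads they were 1.87% ± 0.497 and 0.721% ± 0.0426 (SD, n = 3), a log2 change of -1.36 ± 0.25 (adjusted p = 0.00355). For both genes the days did not overlap, and total reads rose. Both calls were lost without A, without C and with all 24 libraries in the fit. The part of these shares that arises without thiouridine was not measured.

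The same interval in DMSO was set beside that in ML-792 in 1 fit of 24 libraries, in which a difference was called at an adjusted p under 0.1. Of 13285 genes 383 had a higher (2.88%) and 359 a lower (2.7%) log2 change in ML-792 than in DMSO. Among the 742, 235 were higher and 262 lower on day 3 under both treatments, 117 were higher in ML-792 and lower in DMSO, and 128 the reverse. Of the 235, the change was larger under ML-792 in 86 and smaller in 149, and of the 262 it was larger in 82 and smaller in 180. The number of called differences was 138 without replicate A, 240 without C, 1097 without B and 1696 with the replicate block, all 742 included in the last.

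**Figure D4:**
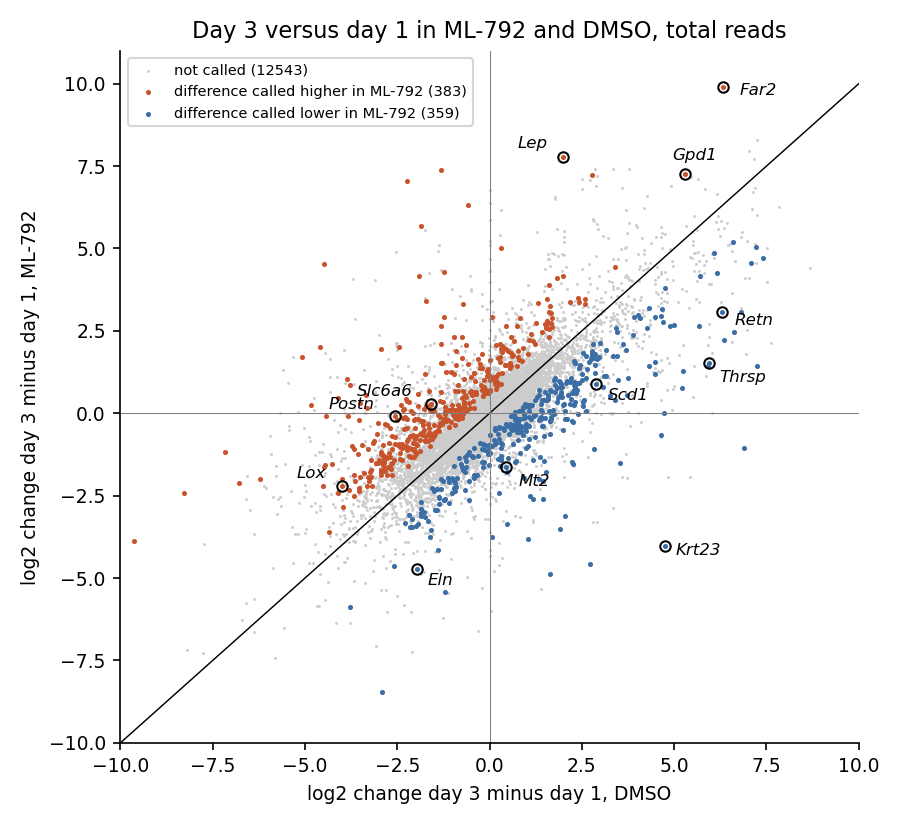
Log2 change of day 3 against day 1 in DMSO (horizontal) and in ML-792 (vertical) for the 13285 genes of the common fit; coloured points are the 383 genes with a higher and the 359 with a lower change in ML-792, grey points the 12543 others, and the diagonal marks equal change. Gpd1 and Lep lie above the diagonal and Thrsp and Retn below it, while Postn falls in DMSO and stays near 0 in ML-792.

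In the lipid and adipokine lists the named differences went both ways. Gpd1 had 146, 152 and 82.6 normalised counts on DMSO day 1 and 4677, 4745 and 5489.6 on DMSO day 3, a log2 change of 5.29 against 7.25 in ML-792 (adjusted p of the difference = 0.000176). Scd1 went from 2938, 3360.4 and 2319 to 19869, 24811 and 18555 in DMSO, 2.88 against 0.90 (adjusted p = 0.000525). On day 1 all ML-792 libraries lay above all DMSO libraries for Scd1. A smaller change than in DMSO was also called for Thrsp, a nuclear protein of lipogenesis (5.94 in DMSO against 1.52, adjusted p = 0.000546, its own rise in ML-792 being lost without A, without C and with the replicate block), for Dgat2 (6.15 against 4.25, adjusted p = 0.000119), for the lipase inhibitor G0s2 (7.40 against 4.72, adjusted p = 0.000136) and for the acyl-CoA synthetase Acsl1 (6.07 against 4.85, adjusted p = 0.00166).

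Retn had 92.0, 82.3 and 83.5 normalised counts on day 1 and 6265, 6945 and 7198 on day 3 in DMSO, a log2 change of 6.31 against 3.07 (adjusted p = 8.99e-05). Adipoq (6.59 in DMSO against 5.21, adjusted p = 0.0109) and Agt (3.61 against 2.11, adjusted p = 0.00136) also rose less in ML-792. Lep counts were 1.88, 1.79 and 3.34 and 13.3, 10.3 and 5.76 in DMSO against 1.08, 0 and 2.75 and 274, 329 and 408 in ML-792, a larger rise in ML-792 (adjusted p = 0.000975), and Acaa2 had a larger change as well (0.39 in DMSO against 1.97, adjusted p = 0.000203). Of 19 adipokine genes 2 differences were higher and 6 lower, but 3 lower without A and without C. No respiratory chain gene and no adipogenic transcription factor was called by this test, which called 2.88% of all genes higher and 2.7% lower. For a list of 22 factors this does not show equal change. Of the 22, 11 had a lower and 11 a higher log2 change in ML-792, and Mlxipl had 5.87 in DMSO against 1.43 without a call. With the replicate block 1 respiratory gene was higher and 2 adipogenic factors were lower. Of the de novo lipogenesis genes 1 difference was higher and 3 were lower, and 3 and 9 with the replicate block. The call of Scd1 was lost without A, and those of Acsl1, Adipoq and Agt without A and without C. Hmgcs1 (2.70 in DMSO against 1.56, adjusted p = 0.0245) and the sterol sensor partner Insig1 (2.79 against 1.75, adjusted p = 0.0766) were, beside Cyp51 and Dhcr7, 2 of 4 cholesterol genes with a smaller rise, none of which was called without A or without C.

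In the mitosis and DNA replication lists some genes fell further under ML-792. The median log2 change of mitosis genes was -2.57 in ML-792 and -1.86 in DMSO, with 10 of 48 differences called lower and none higher. For DNA replication it was -1.34 and -0.82, with 5 of 48 called lower and none higher (none without A or without C, 10 with the replicate block). Top2a had 9248, 6683 and 9788 normalised counts on day 1 and 2764, 2020.1 and 2326 on day 3 in DMSO (-1.85 against -3.02, adjusted p = 0.0197). Pttg1 (-2.15 in DMSO against -3.45, adjusted p = 0.00441) and Tpx2 (-1.85 against -3.12, adjusted p = 0.0139) were similar. No mitosis difference was called without replicate A, 2 were called without C, 17 without B and 24 with the replicate block. Of 18 G1 cyclins and CDK inhibitors 1 difference was higher and 2 were lower, with a median of -0.12 in ML-792 and -0.47 in DMSO. The one called higher was Ccnd1, with -2.13 in DMSO against -1.33 (adjusted p = 0.00463), also lost without A.

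Of the collagens and matrix genes 8 differences were higher and 2 lower, with a median of -1.53 in DMSO and -1.09 in ML-792. Postn had 12858, 13136 and 12100.5 normalised counts on day 1 and 2297, 2525 and 1618 on day 3 in DMSO, -2.56 against -0.07 (adjusted p = 5.33e-06). It thus fell in DMSO, whereas its ML-792 libraries of both days overlapped. Lox (-3.99 in DMSO against -2.22, adjusted p = 2.51e-05), Col1a1 (-3.28 against -1.95, adjusted p = 0.00592), Fbln5 (-3.40 against -1.80, adjusted p = 0.000559) and the precursor genes Ly6a (-3.51 against -1.94, adjusted p = 0.000193) and Pdgfra (-2.07 against -0.91, adjusted p = 0.000369) fell less in ML-792. Eln went the other way, with 25.3, 26.8 and 23.4 and 12.2, 4.56 and 2.31 in DMSO, where its day 1 counts were far lower than in ML-792 and the fall was smaller (-1.95 against -4.72, adjusted p = 0.00953). Without replicate A the counts were 2 higher, without C 5 and without B 12, and with the replicate block 19 higher and 7 lower. The calls of Fbln5, Eln and Pdgfra were lost without A and that of Col1a1 without A and without C.

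The ATF4 and unfolded protein response list had 11 of 32 differences called lower and none higher, and 28 of its 32 genes had a lower log2 change in ML-792 (median 0.35 against 1.09 in DMSO). Members without a called difference included the chaperone genes Hspa5 (0.23 in DMSO against 0.31), Hsp90b1 (-0.39 against -0.31) and Hyou1 (0.12 against 0.02), and Pdia4 (0.02 against -1.07). Slc7a11 had 8.45, 6.26 and 6.68 normalised counts on DMSO day 1 and 142, 76.4 and 73.8 on DMSO day 3, 3.75 against 1.07 (adjusted p = 0.012). Herpud1 went from 388, 488 and 414 to 2078, 1927 and 2313 in DMSO (2.29 against 0.93, adjusted p = 0.000169). Asns (2.50 against 1.18, adjusted p = 0.000559), Trib3 (3.15 against 1.91, adjusted p = 0.00679) and Psat1 (2.75 against 1.66, adjusted p = 0.000506) rose in both treatments and less in ML-792 than in DMSO. Without replicate A 5 differences were called, without C 3 and without B 14, and the calls of Slc7a11 were lost without A, of Asns and Psat1 without C and of Trib3 without either.

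**Figure D5:**
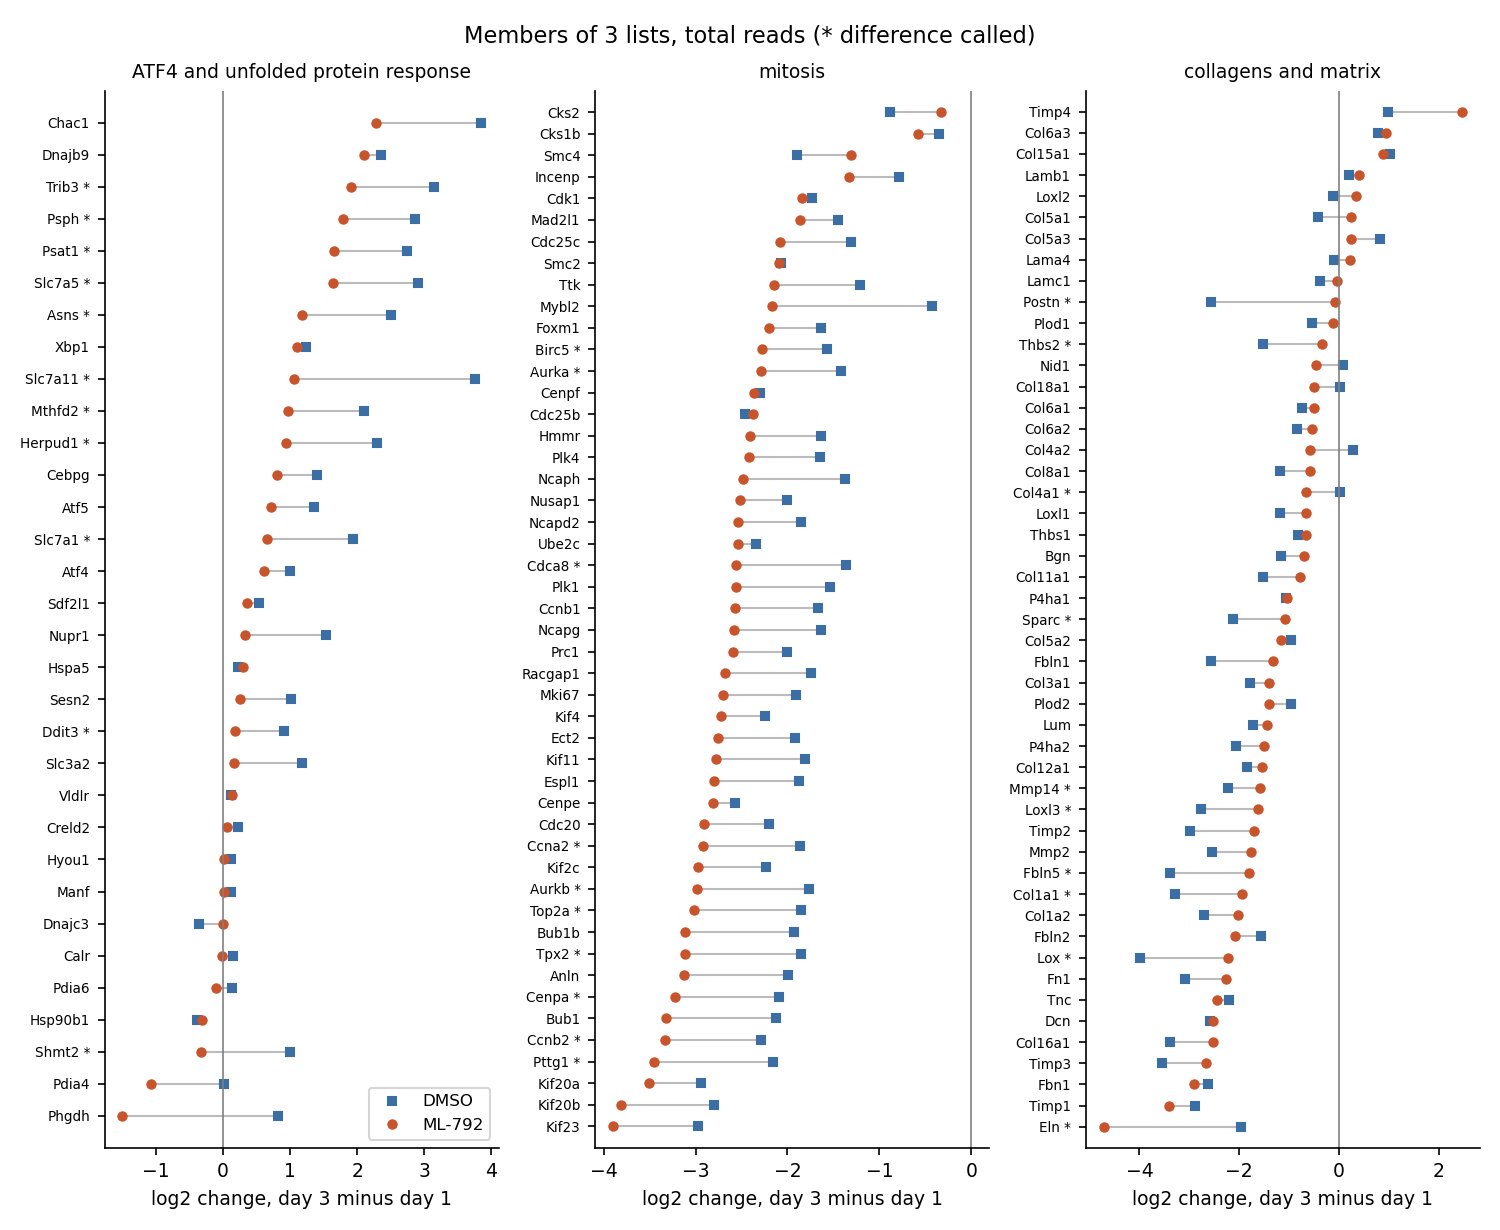
Log2 change of day 3 against day 1 in ML-792 and in DMSO for each tested gene of the ATF4 and unfolded protein response, mitosis and collagens and matrix lists; an asterisk marks a called difference. In the ATF4 list 28 of 32 genes have a lower value in ML-792, and 11 differences are called.

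Of 25 glucocorticoid response genes 3 differences were called higher and 5 lower, and of 22 cAMP response genes 2 and 2. Over all 13285 tested genes 2.88% were called higher and 2.7% lower. The glucocorticoid counts were 1 and 1 without A, 2 and 2 without C, and 6 and 6 with the replicate block. For cAMP they were 0 and 1 without A, 0 and 0 without C, and 3 and 3 with the replicate block. Mt2 had 20485, 19254 and 22675 normalised counts on day 1 and 31449, 25808 and 28468 on day 3 in DMSO, 0.46 against -1.63 (adjusted p = 1.89e-06), with day 1 counts far above DMSO in ML-792 and day 3 counts that overlap between the treatments, and Mt1 had 0.30 against -1.41 (adjusted p = 0.000915). Fos rose in DMSO but not by the test in ML-792 (2.26 against 0.61, adjusted p = 0.0238), and Rgs2, a brake on G protein signals, had -0.31 against -1.31 (adjusted p = 0.00818). Klf2 (0.57 against 1.83, adjusted p = 0.00608), Egr3 (0.44 against 1.96, adjusted p = 0.00679) and the growth arrest gene Gadd45g (0.28 against 1.54, adjusted p = 0.000549) had a higher change in ML-792. The calls of Mt1, Klf2 and Gadd45g were lost without A, of Egr3 without C, of Fos without B and without C, and of Rgs2 without A and without C.

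Slc6a6, the taurine importer, had 11820.4, 15943 and 11076 normalised counts on day 1 and 4066, 4639 and 4338 on day 3 in DMSO, and 4199, 4305 and 4362 and 4922, 5684 and 5072 in ML-792. The DMSO libraries of day 1 lay above all the others. Slc6a6 fell in DMSO and did not pass the test in ML-792 (-1.57 against 0.29, adjusted p of the difference = 1.92e-05). The Wnt effector Lef1 rose less in ML-792 (3.48 against 1.01, adjusted p = 3.91e-06), the activin subunit Inhba had 0.46 in DMSO against -1.79 (adjusted p = 0.0199) and catalase had 1.11 against 2.40 (adjusted p = 0.00162). The call of Inhba was lost without A and that of Cat without A and without C.

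By size, the genes with the largest called differences had almost no reads in 1 or more groups, so their normalised counts on day 1 and day 3 are given in place of folds. Predicted genes were passed over here, among them Gm40560, Gm38664 and Gm35746, whose called differences were also of this size. Cyp2b10, a cytochrome P450, went from 1.08, 0 and 1.84 to 71.3, 91.5 and 119 in ML-792 and from 2.82, 1.79 and 0.835 to 0, 2.28 and 1.15 in DMSO (adjusted p = 0.0013). Mfsd2a went from 0, 0 and 0 to 21.3, 15.5 and 24.8 in ML-792 and from 0.938, 5.37 and 0 to 2.22, 0 and 0 in DMSO (adjusted p = 0.0229). Far2, named for its rise above and not for the size of its difference, went from 2.16, 1.24 and 2.75 to 2061, 2067 and 2302 in ML-792 and from 3.75, 3.58 and 0 to 213, 209.8 and 175 in DMSO (adjusted p = 0.0127). Cyp2b10 was thus near 0 in DMSO on both days, and Far2 was higher on day 3 under both treatments. Etl4 went from 0, 0 and 0 to 3.19, 30.9 and 15.4 in ML-792 and from 11.3, 0.895 and 10.9 to 0, 2.28 and 2.31 in DMSO (adjusted p = 0.00979). The flippase gene Atp9a went from 1.08, 8.69 and 7.34 to 27.7, 12.9 and 15.4 in ML-792 and from 4.69, 3.58 and 4.17 to 0, 0 and 0 in DMSO (adjusted p = 0.022). Nckap5 went from 2.16, 4.96 and 0 to 3.19, 15.5 and 9.46 in ML-792 and from 0, 2.68 and 5.84 to 0, 0 and 0 in DMSO (adjusted p = 0.0962). These 3 genes had low counts in every group of days 1 and 3, and the ML-792 libraries of both days overlap for Nckap5. Nckap5 can have passed the low-count filter only through libraries of the other days.

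Differences on the lower side followed the same form. Krt23, a keratin, went from 52.9, 49.6 and 77.1 to 1.06, 1.29 and 8.28 in ML-792 and from 0.938, 0 and 0 to 13.3, 6.84 and 13.8 in DMSO (adjusted p = 0.000235). Its DMSO libraries were near 0 on day 1, where the ML-792 libraries were high. Il33, not detected on ML-792 day 3, went from 37.5, 41.2 and 34.2 to 1.11, 10.3 and 3.46 in DMSO (adjusted p = 0.0435). Lgi4 went from 2.16, 3.72 and 2.75 to 0, 0 and 0 in ML-792 and from 0.938, 0 and 0 to 3.33, 2.28 and 2.31 in DMSO (adjusted p = 0.0483). Asb17os went from 13.0, 16.1 and 15.6 to 0, 0 and 1.18 in ML-792 and from 0.938, 0.895 and 3.34 to 0, 7.98 and 9.22 in DMSO (adjusted p = 0.0355). Lgi4 had at most a few reads in any library of days 1 and 3, so it can have passed the low-count filter only through the other days. Uroc1, an enzyme of histidine breakdown, went from 0, 2.48 and 6.42 to 11.7, 7.74 and 5.92 in ML-792 and from 0, 0 and 0 to 26.6, 25.1 and 4.61 in DMSO (adjusted p = 0.0578). The differences of Cyp2b10 and Krt23 were called under all alternatives of the closing section. Those of Mfsd2a, Nckap5, Il33, Lgi4, Asb17os and Uroc1 were each lost without A, without B and without C, those of Etl4 and Atp9a without A and without C, and that of Far2 without A and without B.

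In labelled reads 1 of 6242 differences was called higher (0.016%) and 3 lower (0.0481%), with 522 at an unadjusted p under 0.05. The median difference of all tested genes was 0.20, and -0.03 when labelled counts were scaled by their own library sizes, under which 6 differences were called. Slc6a6 had labelled counts of 66.9, 80.6 and 67.0 and 59.6, 68.3 and 55.6 on days 1 and 3 of ML-792 and 232, 411 and 282 and 92.1, 44.5 and 55.3 in DMSO (adjusted p = 0.053). Mt2 (-0.86 in ML-792 against 0.84 in DMSO, adjusted p = 0.053), G0s2 (4.40 against 7.40, adjusted p = 0.0689) and Fos (-0.22 against 2.30, adjusted p = 0.00752) had the lower change in ML-792, as in total reads. None of the 4 was called without A or without C.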

How the data were processed

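Total RNA of 3T3-L1 cells was sequenced from its 3′ ends with the QuantSeq protocol after alkylation of 4-thiouridine. Per the labels and methods, the authors demultiplexed reads with bcl2fastq 2.17.1.14 and counted them per 3′UTR of mm10 with SlamDunk v0.4.3, and deposited raw counts of all reads and of reads with T-to-C conversions. Each table held 91830 entries and 6 library columns that match no sample and were not used. The authors' tables give no p-values or fold changes.

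From these counts 1 entry per gene symbol (26995 genes) was kept, that with the highest mean total count, so alternative 3′ ends are not described. Library sizes and TMM factors of total counts over all 24 libraries scaled both readouts, to a mean size of 12465800 reads. Genes were filtered with filterByExpr (minimum count 10, minimum total 15) and tested with edgeR 4.0.16 quasi-likelihood F-tests in R 4.3.3 with Benjamini-Hochberg adjustment, at 0.01 for day 3 against day 1 (the 12 ML-792 libraries share the spread) and 0.1 for the difference from DMSO (24 libraries). The share per gene used log(total + 1) as offset. Fitted log2 changes carry edgeR's default prior count of 0.125. Groups were taken from the labels. Residual correlations between days of the same letter were 0.198, 0.469 and 0.197 for A, B and C in total reads. Those of A with C were 0.114 and 0.187, and those of B with another letter lay from -0.320 to -0.254. Pairing by letter was thus clear for B only. In labelled reads the same-letter values were 0.0434, 0.104 and 0.00324. Named genes were those named by the study, the 10 highest and 10 lowest called genes per readout, the 5 highest and 5 lowest differences (predicted genes with Gm, LOC or Rik names were counted but replaced by the next gene), and up to 4 called members per list, beside list members chosen after their values were seen. The gene lists and members were chosen with earlier results of these data known. Bounds use a floor of 3 reads per library, and intervals are 95% Clopper-Pearson limits of counting error only, since reads without molecular identifiers are not independent molecules. The scripts were tested on simulated data. Some genes of the lists are not reported here by name.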

Additional observations from a re-analysis of the deposited data

Results flagged for a closer look

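The change from day 1 to day 3 differed between ML-792 and DMSO by the interaction test for 742 genes in total reads and 4 in labelled reads, and the values below are these differences on the log2 scale (change in ML-792 minus change in DMSO, ± SE where printed). They rest on 3 libraries per group, and groups of 3 are too small for a test of single outlying libraries.

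Among lipid genes the difference was 1.96 ± 0.29 for Gpd1, -1.97 ± 0.32 for Scd1, -4.41 ± 0.71 for Thrsp, -1.90 ± 0.27 for Dgat2, -2.68 ± 0.38 for G0s2 and -1.22 ± 0.22 for Acsl1, and for Acaa2 of mitochondrial oxidation it was 1.58 ± 0.24. Secreted factors gave -1.38 ± 0.32 for Adipoq, -3.24 ± 0.44 for Retn, -1.50 ± 0.27 for Agt and 5.79 ± 0.98 for Lep. Sterol genes gave -1.15 ± 0.29 for Hmgcs1 and -1.04 ± 0.32 for Insig1.

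Cell cycle genes had -1.16 ± 0.29 for Top2a, -1.27 ± 0.30 for Tpx2, -1.29 ± 0.27 for Pttg1 and 0.80 ± 0.16 for Ccnd1. Matrix and precursor genes had 1.33 ± 0.28 for Col1a1, 2.49 ± 0.27 for Postn, 1.59 ± 0.26 for Fbln5, 1.76 ± 0.22 for Lox, -2.76 ± 0.62 for Eln, 1.16 ± 0.18 for Pdgfra and 1.57 ± 0.23 for Ly6a.

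Hormone-responsive and early genes had -1.71 ± 0.30 for Mt1, -2.09 ± 0.21 for Mt2, -1.65 ± 0.42 for Fos, 1.26 ± 0.21 for Gadd45g, 1.52 ± 0.33 for Egr3, 1.26 ± 0.27 for Klf2 and -1.003 ± 0.22 for Rgs2. Genes of the ATF4 list had -1.32 ± 0.22 for Asns, -1.24 ± 0.27 for Trib3, -1.09 ± 0.18 for Psat1, -2.69 ± 0.63 for Slc7a11 and -1.36 ± 0.20 for Herpud1. Values of 1.29 ± 0.24 for Cat, 1.86 ± 0.23 for Slc6a6, -2.47 ± 0.26 for Lef1 and -2.25 ± 0.55 for Inhba were also called.

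The largest fitted differences, predicted genes left out, belong to genes with groups near 0 reads, where the value depends on the prior count and is no bound. They were 9.28 for Etl4, 8.70 for Mfsd2a, 6.91 for Cyp2b10, 6.80 for Atp9a and 6.61 for Nckap5. On the lower side they were -8.80 for Krt23, -7.29 for Lgi4, -6.49 for Asb17os, -5.82 for Uroc1 and -5.54 for Il33. Far2, which is not among the 5 largest, had 3.58.

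In labelled reads the differences were 2.04 ± 0.44 for Slc6a6, -2.52 ± 0.47 for Fos, -3.00 ± 0.68 for G0s2 and -1.70 ± 0.37 for Mt2.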

How the results depend on the processing

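The count of 3640 genes called in total reads ranged over the settings that kept all replicates from 2544 (over 2-fold) to 5618 (replicate block), the other values being 3556 with at least 10 summed reads, 3661 with no filter, 4442 with DESeq2, 3507 with all 3′UTR entries, 3606 with 24 libraries and 2863 with 6 libraries. Without 1 replicate it ranged from 1601 to 3928. The 223 labelled calls ranged from 170 (6 libraries) to 283 (replicate block), and from 65 to 154 without 1 replicate. With library sizes of the labelled counts themselves there were 233, of which 130 higher and 103 lower, and without genes over 30% labelled there were 222. The 2 calls of the labelled share per gene became 4 with either other filter, 6 with the replicate block, 0 with 24 libraries, 1 with 6 libraries, and 0 to 3 without 1 replicate. The 742 differences from DMSO in total reads became 1696 with the replicate block and 138 to 1097 without 1 replicate, with 666, 644, 1016, 656 and 553 under at least 10 reads, no filter, DESeq2, all entries and 12 libraries. The 4 differences in labelled reads became 17 with at least 10 summed reads, 11 with no filter, 29 with the replicate block, 34 with DESeq2, 2 with all entries, and 0 to 10 without 1 replicate. The fall in the labelled share of a library, -0.111 percentage points, stayed between -0.103 and -0.123 without 1 replicate and was -0.101 with all entries. The cause of these shifts was not tested.

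Of the genes named, 173 of 244 called in total reads, 24 of 77 in labelled reads and 0 of 2 shares were called the same way under every alternative that tested them. The same held for 22 of 117 differences in total reads and 0 of 4 in labelled reads. An alternative in which a gene was not tested was passed over. With 6 libraries, 56 of the 77 labelled calls were the same and 6 were lost, the rest being untested. The difference of Nckap5 turned to -0.094 with the 12 libraries of days 1 and 3 alone. Labelled counts of 87500 to 141205 reads per library limit what the labelled readout can call, and genes not called there may differ by amounts it cannot resolve. No library went without thiouridine, so the background of T-to-C conversions in the labelled counts was not measured. Samples shared a replicate letter across groups, and the replicate block changed the calls given beside the results.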
